A study of Mus musculus with 18 samples.

Results

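The genes described here are 10 members of the NRF2 antioxidant pathway in mouse dorsal dermis, chosen by symbol from the 32285 genes of the series: Nfe2l2, Keap1, Nqo1, Hmox1, Gclc, Gclm, Txnrd1, Srxn1, Gsr and Prdx1. All 10 were found in the gene list of every library. Their levels were measured by droplet single-cell RNA sequencing and are given as unique molecular identifiers (UMIs, each the tag of 1 captured RNA molecule) per 10000 UMIs of all genes, after the cells of 1 type in 1 library were summed. The samples were 18 libraries of wild-type male C57BL/6J mice, young adults whose hair follicles were at rest, with 3 libraries at each of 6 zeitgeber times (ZT2, ZT6, ZT10, ZT14, ZT18 and ZT22, in hours after lights on, under light and dark phases of equal length). All groups shared this genotype and no treatment was given. Replicates 1, 2 and 3 of a time came from successive 24 h rounds of collection, with a separate mouse for each library. Skin was digested with collagenase before live cells were sorted with a viability dye, so every level was measured after dissociation.

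NRF2, the protein of Nfe2l2, is a transcription factor that switches on protective genes when cells meet oxidants or reactive chemicals. Its partner KEAP1 is a sensor that holds NRF2 and hands it to a ubiquitin ligase for degradation; modified KEAP1 loses this grip, NRF2 enters the nucleus, pairs with a small MAF protein and binds the antioxidant response element. Among its targets are enzymes that make and recycle glutathione, the thioredoxin and peroxiredoxin system, the quinone reductase NQO1 and the haem-degrading enzyme HMOX1. In skin this pathway is known for its part in defence against ultraviolet light and wounding, and HMOX1 is known in macrophages for the clearing of haem from red blood cells.

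The antioxidant response element was searched as TGACNNNGC on both strands of the 300 bases around each RefSeq start site (250 before it and 50 after it, GRCm38.p6). An entry was held for 7 of the 10 genes, with 9 start sites, and 5 of these 9 windows, each of a different gene, had a match, against 12.4% of 32851 windows of all genes. Keap1 and Nqo1 had an entry and no match in this window, which says only that these letters were absent there, and Txnrd1 had a match at 1 of 3 start sites. Hmox1, Gclc and Gsr had no entry. The 5 matches are shown because this motif is the one NRF2 is known to bind, with the 9-base match in capitals and 10 bases on each side, read 5′ to 3′ on the strand of the gene.
Nfe2l2: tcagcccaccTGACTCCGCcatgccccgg
Gclm: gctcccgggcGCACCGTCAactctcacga
Txnrd1: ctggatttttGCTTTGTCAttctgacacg
Srxn1: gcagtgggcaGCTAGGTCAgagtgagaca
Prdx1: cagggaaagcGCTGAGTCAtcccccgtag
The Nfe2l2 stretch lies at chr2:75704885-75704913, on the minus strand, and its match starts 240 bases before the start site on the same strand as the gene (position -240). The stretches of Gclm (chr3:122245413-122245441), Txnrd1 (chr10:82859104-82859132), Srxn1 (chr2:152105542-152105570) and Prdx1 (chr4:116685456-116685484) come from plus-strand genes and hold the motif on the opposite strand. Their first matched bases lie at positions -134, -92, 29 and -133 from the start site. The sequences differ in the 3 free letters as well as in their flanks, and a match is a description of the letters, not evidence of binding in these cells.

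Of 23990 deposited barcodes, 16877 passed the filters on genes and mitochondrial reads, and total UMIs per library ran from 4850221 to 40827442. Marker genes named 12143 fibroblasts (104 to 1551 a library), 1875 macrophages (20 to 255) and 1425 other immune cells (10 to 276). The summed UMIs per library were 2872415 to 33483583 in fibroblasts, 270326 to 3264584 in macrophages and 151726 to 3393634 in other immune cells, so counts of the same gene are least precise in the last pool. Fibroblasts carried the fibroblast markers at 635 to 1116 UMIs per 10000 and macrophages carried the 11 macrophage markers at 179 to 251. Every marker of both lists had a UMI in both pools. The clusters were named with these lists, so the levels describe the pools and are no check of the names. The other immune cells are a mixture of 678 cells of a cluster led by Lyz1 and Ly6c2 and nearest to monocytes, 273 NK and innate lymphoid-like cells, 272 dendritic-like cells, 148 neutrophil-like cells and 54 mast-like cells. Of the neutrophil-like cells 92 came from ZT14 replicate 1 and 0 to 10 from each other library, and 29.9% of the monocyte-led cells came from 1 library. Cell barcodes shared between libraries numbered at most 2 for any pair, and 73 cells in all carried a barcode seen in another library.

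The first question was how the genes are shared out among fibroblasts, macrophages and other immune cells of the same mice. Hmox1 was highest in the macrophages, the recycling enzymes Txnrd1 and Gsr were highest in the other immune cells, and Nqo1 was detected mainly in fibroblasts. Nfe2l2 was also highest in the other immune cells, but not when the 678 monocyte-led cells were counted as macrophages. With that placement the difference in Txnrd1 between macrophages and other immune cells did not pass. For Hmox1 these monocyte-led cells, at a mean of 4.97 per 10000, were close to the 1500 macrophages led by Fcna, at 5.42. The other 375 macrophages stood at 33.96. In an edgeR quasi-likelihood test with each library as a block, 4 of the 9 members tested differed between macrophages and fibroblasts (2 higher and 2 lower in macrophages), where 80.6% of 10063 genes did (38.6% higher and 42% lower). Between other immune cells and fibroblasts 8 of 9 differed (5 higher, 3 lower), where 83.2% of genes did (38.7% higher and 44.6% lower), and between macrophages and other immune cells 8 of 9 differed (3 higher and 5 lower in macrophages), where 64.1% of genes did (36.3% higher and 27.8% lower). Most genes differed between these cell types. The median member differed by -0.10, 0.63 and -0.55 on the log2 scale in the same 3 comparisons, against -0.05, -0.09 and 0.11 over all genes tested. Nqo1 did not pass the filter on low counts. Fold differences below are log2 values with their standard errors and adjusted p-values from this edgeR fit.

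**Figure D1:**
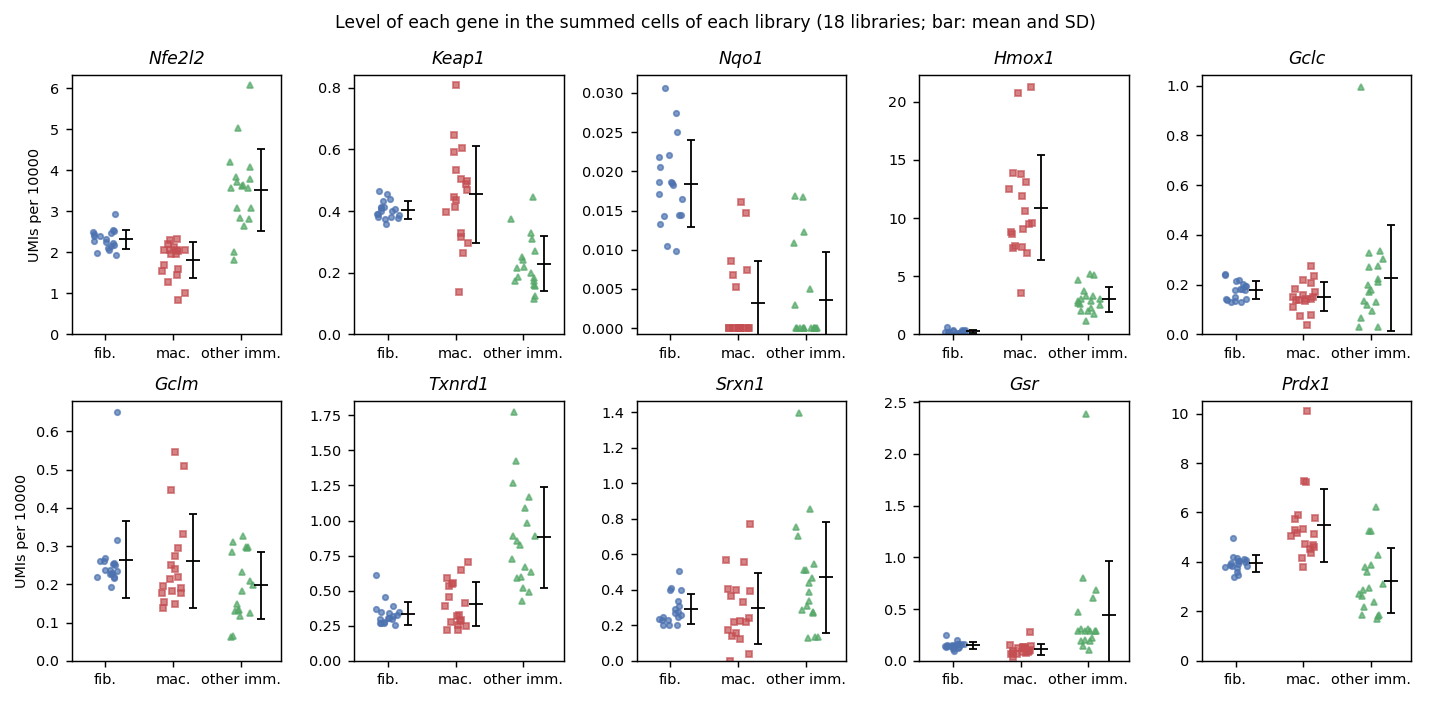
Level of each of the 10 genes (y axis, UMIs per 10000, own scale for each gene) in fibroblasts (fib.), macrophages (mac.) and other immune cells (other imm.); each point is 1 of 18 libraries, the bar is the mean with the SD, cut off at 0 where it would pass below. Hmox1 is at 3.55 or more in every macrophage pool and at 0.656 or less in every fibroblast pool, while for Gclc and Gclm the 3 groups overlap.

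Hmox1 (chr8:75093621-75100589, plus strand, mm10, as for all genes below) encodes haem oxygenase 1, which opens the haem ring and frees iron, carbon monoxide and biliverdin. In macrophages its level ran from 3.55 in ZT18 replicate 1 over a median of 9.53 to 21.3 in ZT10 replicate 2, in other immune cells from 1.19 over 2.84 to 5.20, and in fibroblasts from 0.111 over 0.221 to 0.656 UMIs per 10000. No fibroblast pool reached the lowest pool of either immune group, whereas macrophages and other immune cells overlapped. Of the 5652 Hmox1 UMIs of the other immune cells, 5263 lay in the monocyte-led cluster. Dendritic-like and NK and innate lymphoid-like cells, at means of 0.503 and 0.177, lay inside the range of the fibroblast pools. Mast-like cells stood at 0.440 and neutrophil-like cells at 1.65 over all their cells. The fitted difference was 5.36 ± 0.18 between macrophages and fibroblasts (adjusted p = 3.11e-28), 3.69 ± 0.17 between other immune cells and fibroblasts (adjusted p = 2.53e-23) and 1.68 ± 0.15 between macrophages and other immune cells (adjusted p = 1.02e-12). At least 1 UMI was seen in 91.3% of macrophages (median 11884 UMIs a cell), 43.3% of other immune cells (9514) and 24.6% of the deeper fibroblasts (22175). NK and innate lymphoid-like cells, at a median of 7142 UMIs a cell, had Hmox1 UMIs in 3.30% of cells. Their pooled level was 0.226 per 10000 from 52 UMIs, near the 0.240 of all fibroblasts pooled. The mean fibroblast level was 2.33% of that of macrophages, while the summed macrophage markers in fibroblasts stood at 0.0787% of theirs. Macrophage markers in other immune cells stood at 8.19% of the macrophage level against 27.6% for Hmox1.

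Nqo1 (chr8:107388225-107403206, minus strand), a reductase of quinones, is often used as the readout of NRF2 and gave few UMIs in every cell type. Fibroblasts held 526 UMIs in all, with levels from 0.00986 over a median of 0.0184 to 0.0307 per 10000 and UMIs in each of the 18 libraries. Macrophages held 9 UMIs and other immune cells 7, with 12 of 18 libraries of each at 0, and a count of 0 (limit of 3 counts) allows up to 0.00919 to 0.111 per 10000 in those macrophage pools and 0.0169 to 0.198 in those of other immune cells. This limit lay under the fibroblast level of the same library in 3 of the 12 empty macrophage pools and in 2 of the 12 empty pools of other immune cells, and in the remaining empty pools a difference was not detectable at this depth. Over all libraries together the level was 0.0194 (95% Poisson interval 0.0177 to 0.0211) in fibroblasts, 0.00370 (0.00169 to 0.00702) in macrophages and 0.00414 (0.00166 to 0.00853) in other immune cells, intervals that cover counting error only. Without the filter the edgeR difference was -2.60 in macrophages (adjusted p = 1.87e-08) and -2.28 in other immune cells (adjusted p = 3.97e-06). The mean Nqo1 level of macrophages was 17.7% of that of fibroblasts and that of other immune cells 19.5%, beside 2.62% and 1.31% for the summed fibroblast markers.

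The regulators Nfe2l2 and Keap1 went opposite ways in the other immune cells. Nfe2l2 (chr2:75675513-75704641, minus strand) ran from 1.94 over 2.30 to 2.93 in fibroblasts, from 0.851 over 2.00 to 2.34 in macrophages and from 1.81 over 3.59 to 6.08 in other immune cells. The 3 ranges overlapped, with the highest other immune pool in ZT14 replicate 1, the library rich in neutrophil-like cells. Nfe2l2 was lower in macrophages than in fibroblasts by a log2 difference of -0.45 ± 0.12 (adjusted p = 0.00109), higher in other immune cells than in fibroblasts by 0.64 ± 0.12 (adjusted p = 1.22e-05) and lower in macrophages than in other immune cells by -1.09 ± 0.13 (adjusted p = 8.40e-10). All 3 calls rest on where the monocyte-led cluster is counted: with it among the macrophages the differences became 0.09, -0.01 and 0.10 and none passed. Without the neutrophil-like cells the difference from fibroblasts was 0.60 and still passed.

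Keap1 (chr9:21229730-21239361, minus strand), the sensor that keeps NRF2 low, had the narrowest range of the members in fibroblasts, from 0.359 over 0.401 to 0.465. Macrophages ran from 0.136 over 0.457 to 0.808 and other immune cells from 0.116 over 0.207 to 0.446, so that all 3 overlapped. Keap1 was lower in other immune cells than in fibroblasts by -0.82 ± 0.12 (adjusted p = 9.54e-08) and higher in macrophages than in other immune cells by 0.87 ± 0.13 (adjusted p = 2.32e-07). Between macrophages and fibroblasts the difference was 0.05 ± 0.10 (adjusted p = 0.673), with a sign that turned under several settings.

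**Figure D2:**
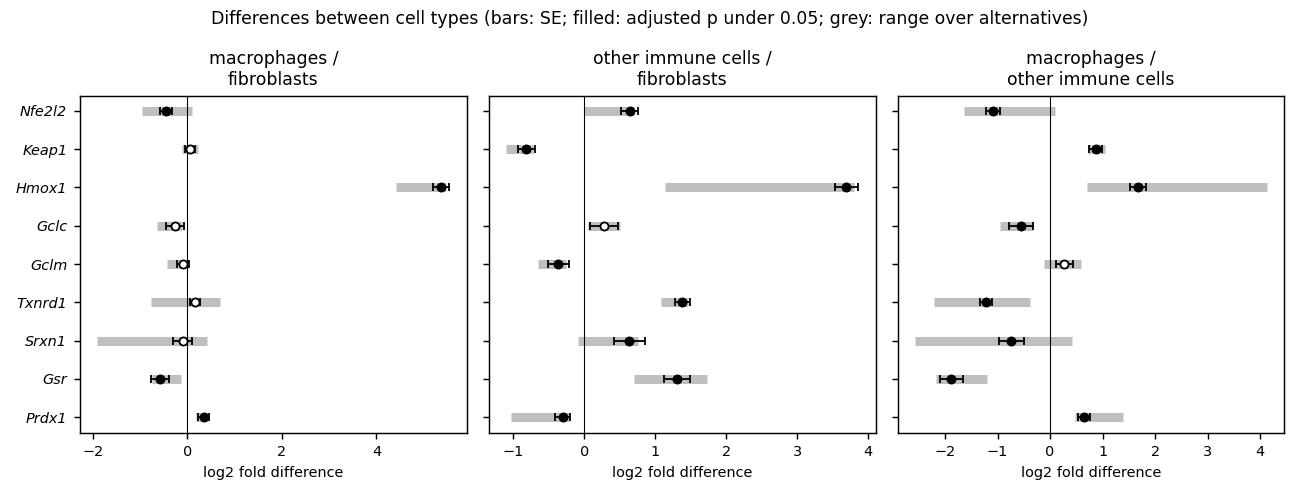
Log2 fold difference of each member (y axis) in the 3 comparisons of cell types (x axis, log2); points are the edgeR estimates with SE, filled where the adjusted p is under 0.05, and grey bars span the values under all alternatives, including leaving out each library. Hmox1 keeps its sign in every comparison, whereas the grey bars of Nfe2l2 and Srxn1 cross or touch 0 in all 3.

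Among the members that act on glutathione, Gclc and Gclm differed little between the pooled cell types, unlike Gsr. Further glutathione genes, most of which differed, are described below. Gclc (chr9:77754535-77794485, plus strand) and Gclm (chr3:122245557-122270732, plus strand) encode the catalytic and the modifier subunit of glutamate-cysteine ligase, the first step of glutathione synthesis. Gclc ran from 0.132 over 0.181 to 0.244 in fibroblasts, from 0.0370 over 0.147 to 0.274 in macrophages and from 0.0298 over 0.189 to 0.996 in other immune cells, where the top value came from ZT6 replicate 3. Neither immune group differed from fibroblasts (-0.27 ± 0.19, adjusted p = 0.189, and 0.28 ± 0.20, adjusted p = 0.199), and macrophages were lower than other immune cells by -0.55 ± 0.23 (adjusted p = 0.0363). That call was lost when any 1 of 6 libraries was left out (ZT2 replicates 1 and 3, ZT6 replicates 2 and 3, ZT18 replicate 2, ZT22 replicate 2), with adjusted p up to 0.130.

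Gclm ran from 0.194 over 0.237 to 0.651 in fibroblasts, from 0.137 over 0.216 to 0.545 in macrophages and from 0.0610 over 0.190 to 0.327 in other immune cells. The ranges overlap, and the top fibroblast value, of ZT14 replicate 1, is far above the next, 0.315. Other immune cells were lower than fibroblasts by -0.37 ± 0.15 (adjusted p = 0.0203), a call that was lost without ZT14 replicate 1 (-0.26, adjusted p = 0.106), without ZT10 replicate 2 or without ZT14 replicate 3. Gsr (chr8:33652523-33698163, plus strand), the glutathione reductase that returns oxidised glutathione to use, ran from 0.0975 over 0.145 to 0.245 in fibroblasts, from 0.0370 over 0.102 to 0.282 in macrophages and from 0.104 over 0.286 to 2.39 in other immune cells. The highest pool of all 3 types was that of ZT14 replicate 1. Gsr was lower in macrophages than in fibroblasts (-0.57 ± 0.20, adjusted p = 0.00758), higher in other immune cells than in fibroblasts (1.31 ± 0.18, adjusted p = 1.48e-08) and lower in macrophages than in other immune cells (-1.88 ± 0.22, adjusted p = 5.15e-10). Without the neutrophil-like cells the second difference was 0.70 (adjusted p = 4.13e-05) and the third -1.21 (adjusted p = 1.21e-07), and with the monocyte-led cells counted as macrophages the first was -0.14 and no longer passed.

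In the thioredoxin system Txnrd1 and Srxn1 were higher in other immune cells and Prdx1 was higher in macrophages. Txnrd1 (chr10:82833951-82897712, plus strand), the cytosolic thioredoxin reductase, ran from 0.254 over 0.313 to 0.608 in fibroblasts, from 0.222 over 0.359 to 0.704 in macrophages and from 0.428 over 0.840 to 1.78 in other immune cells. The ranges overlapped, though in each of the 18 libraries the other immune pool was above the fibroblast pool. These were higher than fibroblasts by 1.38 ± 0.11 (adjusted p = 1.54e-15), and macrophages were lower than them by -1.22 ± 0.12 (adjusted p = 2.73e-12), a difference of -0.39 that did not pass with the monocyte-led cells counted as macrophages. Macrophages and fibroblasts differed by 0.16 ± 0.11 (adjusted p = 0.170), and by 0.23 with an adjusted p of 0.0460 without ZT14 replicate 1.

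Srxn1 (chr2:152105516-152111376, plus strand), which repairs overoxidised peroxiredoxins, ran from 0.199 over 0.262 to 0.507 in fibroblasts, from 0 over 0.232 to 0.769 in macrophages and from 0.130 over 0.414 to 1.39 in other immune cells. The only empty pool was that of the 20 macrophages of ZT18 replicate 1, whose count of 0 allows up to 0.111. Other immune cells were higher than fibroblasts by 0.63 ± 0.21 (adjusted p = 0.00662) and macrophages were lower than other immune cells by -0.74 ± 0.24 (adjusted p = 0.00647). Both directions turned under the finer clustering, to -0.01 and 0.42, and with the monocyte-led cells counted as macrophages, to -0.09 and 0.41. Prdx1 (chr4:116685544-116700822, plus strand), an abundant peroxidase that uses thioredoxin, ran from 3.38 over 3.92 to 4.96 in fibroblasts, from 3.79 over 5.16 to 10.1 in macrophages and from 1.70 over 2.91 to 6.23 in other immune cells. The ranges overlapped, with macrophages higher than fibroblasts by 0.34 ± 0.11 (adjusted p = 0.00390), other immune cells lower than fibroblasts by -0.30 ± 0.11 (adjusted p = 0.0106) and macrophages higher than other immune cells by 0.65 ± 0.11 (adjusted p = 2.42e-06).

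Within the macrophages the members were unevenly spread over 2 clusters, which had been formed without the member genes and are described without a test. A cluster of 375 cells led by Gdf15, Hmox1, Cd83 and Hbegf held Hmox1 at 33.96 ± 12.8 UMIs per 10000 (SD over the 16 libraries with at least 10 such cells), against 5.42 ± 1.15 (n = 18) in the 1500 macrophages led by Fcna, Folr2 and Lyve1. Srxn1 stood at 1.23 ± 0.848 and 0.0811 ± 0.0436 in the 2 clusters, Txnrd1 at 1.26 ± 0.555 and 0.212 ± 0.0714 and Nfe2l2 at 4.10 ± 1.15 and 1.27 ± 0.237. Gclm stood at 0.538 ± 0.699 and 0.208 ± 0.0471, so that its SD in the smaller cluster exceeded its mean. Keap1 was the exception among these, at 0.214 ± 0.132 and 0.512 ± 0.178. Median depth per cell was alike, 11457 and 12008.5 UMIs. The Gdf15-led cluster made up 0% (ZT18 replicate 1) to 37.0% (ZT10 replicate 1) of the macrophages of a library.

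The Gdf15-led cluster was picked for removal because Hmox1 is among its leading genes, so its removal lowers Hmox1 by that choice. Its means of Srxn1, Txnrd1, Nfe2l2, Gclm and Gclc were also higher (for Gclc 0.332 against 0.121), so removing the cluster lowers these as well. Without it, an alternative added after the data were seen, the macrophages still exceeded fibroblasts in Hmox1, by 4.42 (adjusted p = 4.06e-26), and their lowest pool stayed at 3.55. In this fit 7 of 9 members differed from fibroblasts, where 80% of 9658 genes did, with lower levels of Srxn1 by -1.90 (adjusted p = 2.71e-10), Txnrd1 by -0.77 (adjusted p = 7.63e-09), Gclc by -0.64 (adjusted p = 0.00480), Gclm by -0.42 (adjusted p = 0.000858) and Nfe2l2 by -0.95 (adjusted p = 5.84e-10), as well as Gsr. Because the removal itself lowers Srxn1, Txnrd1, Gclc, Gclm and Nfe2l2, this count and their differences only describe the remaining cells. Keap1 and Prdx1 had differences of 0.22 and 0.21 on the side of Hmox1 and did not pass (adjusted p = 0.0571 and 0.0613). For Txnrd1 and Srxn1, whose differences between all macrophages and fibroblasts did not pass, the mean of the small cluster lay above the fibroblast mean and that of the large cluster below it. Genes raised by tissue dissociation were counted beside the members from a list of 12. Of these 9 differed between all macrophages and fibroblasts (6 higher, 3 lower), where 80.6% of 10063 genes did. Their summed level ran from 52.0 to 240.3 per 10000 in macrophages, lowest in ZT18 replicate 1 and highest in ZT10 replicate 3, and from 78.5 to 149.4 in fibroblasts. Their part in the levels of the members was not tested.

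Among fibroblast clusters, a similar unevenness was seen. The 2 clusters set side by side here are those with the highest and the lowest Hmox1, the first picked for that reason. The 905 cells of a cluster led by Tnfaip6, Cthrc1, Ptx3 and Tnmd held Hmox1 at 0.884 ± 0.545 (SD, n = 17 libraries), Srxn1 at 0.680 ± 0.464 and Txnrd1 at 0.639 ± 0.239. In the cluster of 2381 cells led by Sema3e, Pi16 and Cd248 the same genes stood at 0.0968 ± 0.0359, 0.217 ± 0.0435 and 0.279 ± 0.0524 (n = 18). Keap1 and Nfe2l2 were lower in the Tnfaip6-led cells, at 0.239 and 1.56 against 0.396 and 2.33. Low Nfe2l2 and raised Hmox1 were not particular to them. Cells led by Cilp held Nfe2l2 at 1.38, Hmox1 at 0.567 and Srxn1 at 0.226, and cells led by Cxcl14 at 1.50, 0.470 and 0.278. The Tnfaip6-led cells made up 3.31% to 18.1% of the fibroblasts of a library, and the library with the largest share, ZT6 replicate 2, also had the highest fibroblast Hmox1. Without them the fibroblast Hmox1 level ran from 0.105 over 0.161 to 0.343, with ZT14 replicate 1 highest.

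Other immune clusters differed as widely. The neutrophil-like cells, of which only 2 libraries held at least 10, had the highest Gsr (6.09 per 10000 over all 148 cells), Txnrd1 (3.91) and Nfe2l2 (9.62) of the immune clusters, with 4 Keap1 UMIs in all (0.0591). The monocyte-led cells held most of the Hmox1 of the other immune cells, at 4.97 ± 2.10 (n = 15), against 0.503 ± 0.343 (n = 12) in dendritic-like and 0.177 ± 0.450 (n = 11) in NK and innate lymphoid-like cells. Srxn1 stood at 2.84 over the 54 mast-like cells, from 84 UMIs, and at 0.623, 0.0837 and 0.0823 in the monocyte-led, dendritic-like and NK and innate lymphoid-like cells.

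The second question was whether levels cycle over the day. None of the members was called rhythmic in any of the 3 cell types by the edgeR test of a 24 h cosine at an adjusted p of 0.05. This was 0 of 10 in fibroblasts, where 13.6% of 12774 genes were called, 0 of 9 in macrophages, where 0.445% of 9443 were, and 0 of 9 in other immune cells, where 0 of 7998 were and 434 genes had an unadjusted p under 0.05. At an unadjusted edgeR p under 0.05 stood 1 member in fibroblasts (Gsr), 3 in macrophages (Nfe2l2, Hmox1 and Gclc) and 2 in other immune cells (Gclc and Gsr). Of all genes tested, 3800 of 12774 stood there in fibroblasts and 1143 of 9443 in macrophages. DESeq2, JTK_Cycle, the 6 times as a factor and a block for the collection round also called 0 members. DESeq2 gave an adjusted p to 10 members in fibroblasts, but to only 6 in macrophages and 8 in other immune cells. As a check on the sampling of time, 12 of 12 clock genes were called in fibroblasts, 7 of 12 in macrophages and 0 of 9 in other immune cells. Simulated counts of the same design included rhythms with log2 amplitudes of 0.25, 0.5 and 1. The test recovered 32%, 85.7% and 98% in fibroblasts, 6%, 58% and 96% in macrophages and 0%, 14% and 81.6% in other immune cells. Rhythms of small amplitude were thus not detectable in the immune pools. These percentages are not specific to the members, and recovery at the levels and spread of the members was not tested. In fibroblasts Hmox1 had a coefficient of variation of 53.4% over the libraries, where counting alone gives 6.22%. Its fitted amplitude there was 0.47 and was not called (edgeR adjusted p = 0.177).

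**Figure D3:**
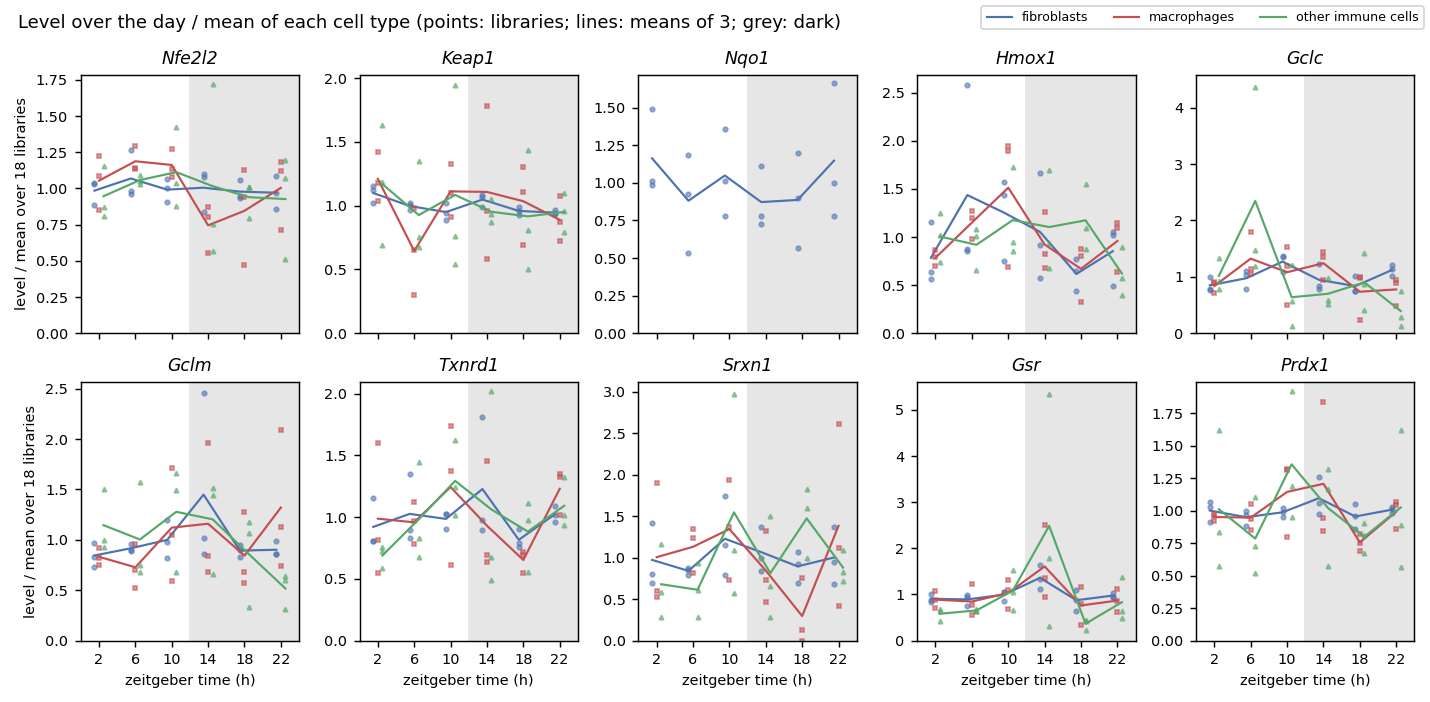
Level of each gene divided by its mean over 18 libraries (y axis, ratio) against zeitgeber time (x axis, hours); points are libraries, lines join the means of 3 libraries and the grey area is the dark phase. Immune values of Nqo1, with 9 and 7 UMIs, are left out. Lines of Nfe2l2, Keap1 and Prdx1 in fibroblasts stay near 1, and the peaks of Gclm in fibroblasts and Gsr in other immune cells at ZT14 rest on a single point.

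In fibroblasts the fitted amplitudes were smallest for 3 members, at 0.07 ± 0.05 for Nfe2l2, 0.06 ± 0.03 for Keap1 and 0.03 ± 0.03 for Prdx1 (log2, with jackknife SE over libraries). Gsr had the smallest p, with an amplitude of 0.21 ± 0.08, a peak at ZT13.9 and an adjusted p of 0.122. It passed when ZT18 replicate 1 was left out (amplitude 0.23, adjusted p = 0.0449) and not when any other library was. The time means of Gsr ran from 0.131 at ZT18 to 0.203 at ZT14, and both extremes hold a library that stands apart for several members. Hmox1 had the largest fibroblast amplitude, 0.47 ± 0.21 with a peak at ZT8.3 (adjusted p = 0.177): the ZT means ran from 0.157 at ZT18 to 0.366 at ZT6, but the 3 libraries of ZT6 ran from 0.218 to 0.656. Gclm had an amplitude of 0.28 ± 0.19, which fell to 0.10 without ZT14 replicate 1. Over all members the median amplitude in fibroblasts was 0.14, against 0.13 over all genes tested.

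In macrophages the median amplitude was 0.30, against 0.17 over all genes tested. Hmox1 had an amplitude of 0.43 ± 0.19 with a peak at ZT8.4 (adjusted p = 0.355) and its time means ran from 7.30 at ZT18 to 16.5 at ZT10, where the 3 libraries stood at 7.54, 20.7 and 21.3. The lowest ZT10 library thus lay below the median of all libraries. Nfe2l2 had an amplitude of 0.30 ± 0.13 with a peak at ZT5.2 (adjusted p = 0.394), and its time means ran from 1.35 at ZT14 to 2.15 at ZT6. Gclc had an amplitude of 0.42 ± 0.16 with a peak at ZT9.6 (adjusted p = 0.313), from 1 to 47 UMIs a library. The share of macrophages in the Gdf15-led cluster was also highest at ZT10, with time means of 13.1% at ZT2, 22.3% at ZT6, 36.5% at ZT10, 12.997% at ZT14, 12.2% at ZT18 and 19.2% at ZT22. The order of the times was the same for both apart from ZT2 and ZT14. These 2 times had nearly equal shares, while Hmox1 averaged 8.56 at ZT2 and 10.1 at ZT14. The ZT14 libraries ran from 7.42 to 13.8 in Hmox1. All 3 ZT10 libraries lay at 35.6% to 37.0%. Without that cluster the amplitudes of Hmox1 and Nfe2l2 were 0.20 and 0.19 (adjusted p = 0.646 and 0.633), and that of Gclc was 0.40. The cluster was picked for removal because Hmox1 is among its leading genes, so a smaller Hmox1 amplitude was partly fixed by that choice. Whether the share of this cluster bears on the amplitudes was not tested.

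**Figure D4:**
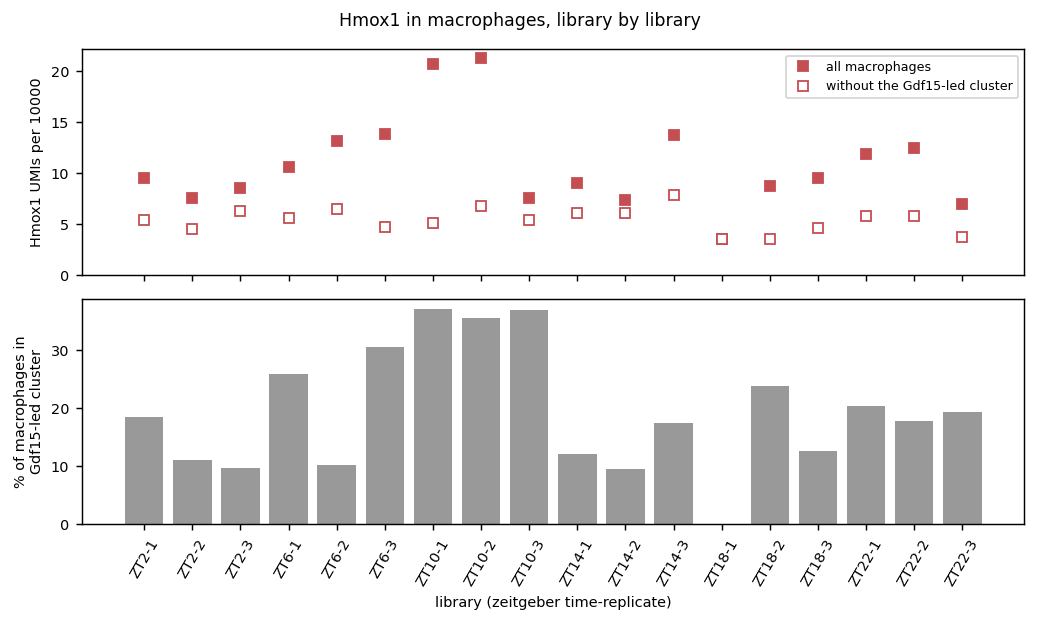
Hmox1 UMIs per 10000 (upper y axis) in all macrophages of each library and in those outside the Gdf15-led cluster, above the percentage of macrophages in that cluster (lower y axis), for the 18 libraries (x axis, zeitgeber time and replicate). Filled squares reach 21.3 while open squares stay between 3.55 and 7.85, and the 3 libraries of ZT10 have bars of 35.6% to 37.0%.

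In other immune cells the median amplitude was 0.28, against 0.19 over all genes tested. The largest amplitudes were 0.91 ± 0.58 for Gsr and 0.80 ± 0.52 for Gclc, with the widest standard errors of all these fits. Without ZT14 replicate 1 the Gsr amplitude was 0.36, and without ZT6 replicate 3 that of Gclc was 0.37. The test of a difference in rhythm from fibroblasts called 0 of 9 members in macrophages, where 0.119% of 10063 genes were called, and 0 of 9 in other immune cells, where 0.288% were. No member had an unadjusted edgeR p under 0.05 in either test, where 548 and 1094 of the 10063 genes had. DESeq2 called 0 members as well.

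The members varied to different degrees among the fibroblast pools, which differ in mouse, time, preparation and cluster makeup, sources that were not separated. The coefficient of variation over 18 libraries was 53.4% for Hmox1, where counting alone gives 6.22%, and 37.8% for Gclm, 29.7% for Srxn1 and 25.04% for Txnrd1, against 6.11%, 5.82% and 5.42%. It was 7.05% for Keap1 (4.94% from counting) and 8.63% for Prdx1 (1.58%). The fibroblasts of ZT14 replicate 1 held the highest Gclm (0.651, others at most 0.315), Txnrd1 (0.608, others at most 0.454), Gsr (0.245, others at most 0.200) and Prdx1 (4.96, others at most 4.21), and the lowest Nfe2l2 (1.94, others at least 1.98). The other libraries of ZT14 held Gclm at 0.228 and 0.270. This library was also the highest for 16 of 67 other pathway genes and for 21.0% of the 12774 genes tested, and its neutrophil markers in fibroblasts were the highest at 0.153 per 10000 (median of libraries 0.0124). ZT18 replicate 1, with 104 fibroblasts, was the lowest for 4 of the 10 members and for 10.9% of genes. The part of neutrophil RNA in these values was not tested.

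**Figure D5:**
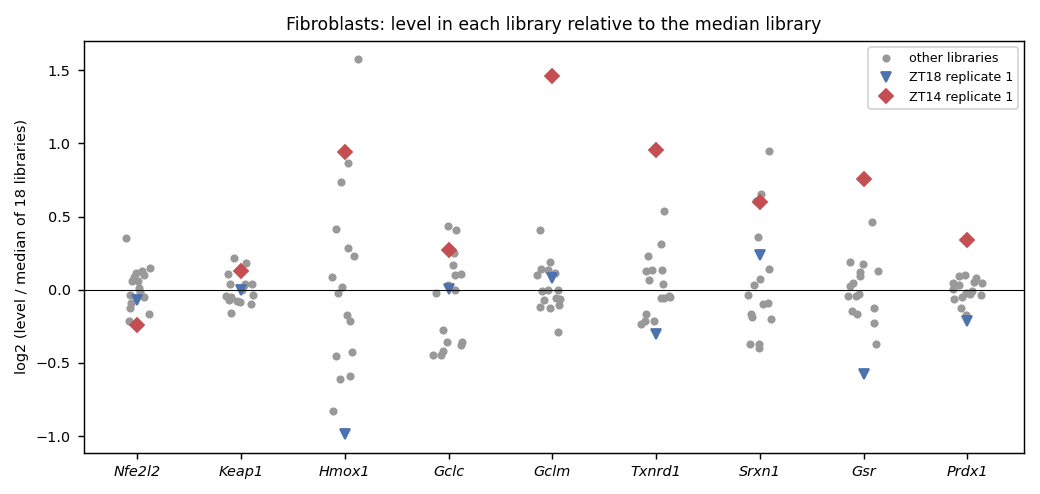
Fibroblast level of 9 members in each library relative to the median of 18 libraries (y axis, log2 ratio); grey points are libraries, red diamonds mark ZT14 replicate 1 and blue triangles ZT18 replicate 1. The red diamond is the top point for Gclm, Txnrd1, Gsr and Prdx1 and the bottom point for Nfe2l2, and the blue triangle is the bottom point for Hmox1, Txnrd1, Gsr and Prdx1.

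Levels of 2 pairs of members moved together across the 18 fibroblast pools, out of 45 pairs tested by permutation. Gsr and Prdx1 had a Pearson r of 0.847 (adjusted permutation p = 0.00315) and a Spearman rho of 0.752 (adjusted permutation p = 0.0103). The r was 0.588 without the 2 libraries farthest from the median of Gsr, ZT14 replicate 1 and ZT18 replicate 1, and 0.992, 0.517 and -0.284 within rounds 1, 2 and 3 of 6 libraries each, so it did not hold in the third round. Hmox1 and Txnrd1 had an r of 0.785 (adjusted permutation p = 0.00405) and a rho of 0.843 (adjusted permutation p = 0.00045). That r was 0.739 without ZT6 replicate 2 and ZT14 replicate 1, and 0.827, 0.928 and 0.0512 within the rounds, again absent in the third. Among fibroblast clusters both members of the second pair were at their highest in the Tnfaip6-led cells, a cluster picked for its high Hmox1. The share of these cells differs between libraries, and its part in the r was not tested.

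The rest of the pathway was followed through 70 further genes. In fibroblasts 16 of 67 tested were rhythmic, where 13.6% of all genes were. Their peaks ran from ZT4.2 to ZT20.6, and 10 of the 16 lay between ZT4 and ZT12, as did 31% of the peaks of the 1743 rhythmic genes. This window was not part of the planned comparisons, and the share of peaks in it was not tested. The 5 with the smallest adjusted p were Ephx1, an epoxide hydrolase (log2 amplitude 0.52, peak ZT9.9, adjusted p = 6.06e-06), the glutathione transferase Gstm2 (0.40, ZT4.3, 9.17e-06), the peroxiredoxin Prdx6 (0.30, ZT6.7, 0.00106), the NRF2 partner Mafg (0.20, ZT7.0, 0.00257) and the ferritin light chain Ftl1 (0.20, ZT10.6, 0.00464). With 6 times as a factor 8 of the further genes were called, where 1113 of 12774 genes were. DESeq2 called 20 of the further genes, where it called 2398 of 13592 genes. Macrophages had 2 of 64, Sqstm1, an adaptor that binds KEAP1 (amplitude 0.68, peak ZT6.6, adjusted p = 0.00735), and Slc3a2, a subunit of the cystine transporter (0.38, ZT7.5, 0.0249). Neither passed without the Gdf15-led cluster (adjusted p = 0.458 and 0.358), under the finer clustering or with the monocyte-led cells counted in, and Slc3a2 was also lost when any 1 of 6 libraries was left out. Other immune cells had 0 of 53, with 4 genes at an unadjusted edgeR p under 0.05, where 434 of all 7998 genes stood.

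Between macrophages and fibroblasts 60 of 66 further genes differed, 29 higher and 31 lower, where 80.6% of all genes differed (38.6% higher and 42% lower). Of the 6 haem and iron genes 5 were higher in macrophages and 0 lower, led by Hmox2, the constitutive haem oxygenase (2.28 ± 0.10, adjusted p = 4.33e-24), Ftl1 (1.99 ± 0.09) and the biliverdin reductase Blvra (1.94 ± 0.10). Of 21 glutathione genes 7 were higher and 13 lower. The genes most clearly lower in macrophages were Prdx6 (-2.90 ± 0.10), the endoplasmic reticulum peroxidase Gpx8 (-5.36 ± 0.21) and thioredoxin, Txn1 (-1.56 ± 0.06).

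Between other immune cells and fibroblasts 63 of 66 differed, 27 higher and 36 lower, where 83.2% of all genes did. Slc7a11, the other subunit of the cystine transporter and a known NRF2 target, was held almost wholly by the other immune cells, with 3127 UMIs against 91 in fibroblasts and 8 in macrophages. Its level in other immune cells ran from 0.287 over 0.896 to 9.08 per 10000, with ZT14 replicate 1 highest. Slc7a11 is among the leading genes of the neutrophil-like cluster, and 92 of the 148 cells of that cluster came from this library. The pooled count is therefore weighted towards these cells. Glutaredoxin, Glrx (3.26 ± 0.10), and Slc3a2 (2.54 ± 0.09) were also higher in other immune cells, and Gstm1 (-3.75 ± 0.14), Gpx8 (-5.71 ± 0.24) and Gstm5 (-5.09 ± 0.22) were lower. Between macrophages and other immune cells 52 of 66 differed, where 64.1% of all genes did, with 32 higher in macrophages, led by the biliverdin reductase Blvrb (2.79 ± 0.13), the thioredoxin-binding Txnip (1.88 ± 0.10) and Idh1, a source of NADPH (1.55 ± 0.10). Besides Slc7a11, the pentose phosphate enzyme Tkt (-1.33 ± 0.08) and Prdx6 (-1.49 ± 0.10) led the 20 genes that were lower.

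For 3 members the genes with the most similar pattern over the 18 means of cell type and time were sought among 10130 genes. Hmox1 was followed by Cd36 (Pearson r = 0.992), Clec4a1 (0.989) and Serpinb8 (0.988), Nfe2l2 by Map4k4 (0.955), Arl5b (0.944) and Ndel1 (0.938), and Nqo1 by Etfa (0.968), Nbea (0.964) and Inpp5a (0.964). The 18 points share their libraries and fall into 3 cell types, which fixes much of each r, so these values are a description of likeness only. For Nqo1 every level also lay under the 0.05 per 10000 that was added before taking logs. Its immune means rest on 9 UMIs in macrophages and 7 in other immune cells.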

How the data were processed

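The deposited files hold whole-number UMI counts per gene and cell, which per the labels and the study's methods the authors made with Cell Ranger 3.1.0 on mm10 from 10x Chromium 3' libraries; the counts are neither normalized nor depth-adjusted. Tags near the 3' end do not allow levels of different genes to be compared. A barcode was kept if it had between 850 and 7800 genes with a UMI and less than 13% of its UMIs from mitochondrial genes. They were clustered with scanpy 1.11.5 (2000 variable genes, without the members, pathway and clock genes; 30 components, 15 neighbours, resolution 0.8, 22 clusters), and clusters were named from marker lists. Clusters led by red cell genes or by markers of several types stayed unnamed, and the monocyte-led cluster, with 8 detected macrophage and 3 monocyte markers, was placed with the other immune cells after the clusters were seen. Doublet scores flagged 163 cells, which were kept and removed in an alternative.

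The UMIs of the cells of 1 type were added up within each library, and pools of under 10 cells were left out (there were none). edgeR 4.0.16 (TMM, filterByExpr, quasi-likelihood F test, Benjamini-Hochberg over all genes tested, threshold 0.05) tested a 24 h cosine and sine within each type, the level between types with library as a block, and the interaction of both. DESeq2 1.42.0 and JTK_Cycle were alternatives, as were other size factors, no filter, 20 cells as minimum, resolution 2 and leaving out each library. The rhythm tests of the 3 types and the level and rhythm differences of macrophages against fibroblasts were also run on simulated counts with known changes. The level and rhythm differences of other immune cells were not simulated. Motif and coordinates came from RefSeq and the mm10 annotation. The mouse is the replicate, per the study's methods. Members, pathway lists and marker lists were chosen with earlier results of these data known; of the other pathway genes past the threshold, the 3 with the smallest adjusted p in each direction (5 for a rhythm) were named. Same-numbered libraries came from separate mice. The mean correlation of their deviations was 0.0506, 0.051 and 0.00904 in the 3 types. Pairs ran from -0.141 to 0.268, from -0.408 to 0.353 and from -0.207 to 0.211. Libraries of different numbers had means of -0.0245, -0.0254 and -0.00392.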

Additional observations from a re-analysis of the deposited data

How the results depend on the processing

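Of 738 values of the members' level differences under alternatives (27 differences), 689 kept direction and call, 19 lost the call, 10 gained it and 20 changed sign; of 732 for rhythm 1 gained a call, and of 432 for the difference in rhythm 0 changed. Between macrophages and fibroblasts, Keap1 turned to -0.075 with median-ratio size factors, -0.12 without the filter, -0.018 at resolution 2, -0.078 with DESeq2, -0.053 with the monocyte-led cluster counted as macrophages and -0.023 to 0.12 with 1 library left out; Txnrd1 turned to -0.0097 without the filter and -0.77 without the Gdf15-led cluster, where 7 members passed; Srxn1 turned to 0.41 at resolution 2, 0.0073 with no library block and 0.33 with the monocyte-led cluster moved, which took Nfe2l2 to 0.090. Between other immune cells and fibroblasts, Srxn1 turned to -0.014 and -0.087 under these clusterings and Nfe2l2 to -0.0068; between macrophages and other immune cells, Srxn1 turned to 0.42 and 0.41, Nfe2l2 to 0.10, and Gclm to -0.12 without the Gdf15-led cluster. The cause was not tested. Counts over all genes moved more: without the filter 12442 and 13216 genes differed in level from fibroblasts in macrophages and other immune cells, and 24 and 122 in rhythm (38 and 88 with DESeq2; 6 to 14 and 11 to 79 with 1 library left out). Rhythmic genes numbered 1113 in fibroblasts with 6 times as a factor (1296 to 1930 with 1 library left out), and in macrophages 232 without the filter, 18 at resolution 2, 603 by JTK_Cycle with no adjustment, 211 with DESeq2, 13 with the monocyte-led cluster, 20 without the Gdf15-led cluster and 24 to 79 with 1 library left out. In other immune cells they numbered 13 without the filter, 314 by JTK_Cycle and 0 to 16 with 1 library left out. With a block for the replicate number 1827, 42 and 1 genes were called in the 3 types and no member call changed; the numbers do not pair the samples. Members called rhythmic in fibroblasts numbered 0 to 1 with 1 library left out. With 151726 UMIs in the smallest pool, depth limits the other immune cells most.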
